A study of Mus musculus with 4 samples.

Results

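The 10 genes described here encode enzymes and receptors of the prostaglandin and leukotriene pathways: *Ptgs1*, *Ptgs2*, *Ptges*, *Hpgds*, *Alox5*, *Alox5ap*, *Ltc4s*, *Alox15*, *Ptger2* and *Ptger4*. They were matched by symbol to the mouse Ensembl gene identifiers of the count table, which found all 10 among 54532 genes. The matching rule used no measured value, but the list was drawn up with earlier results of these data known. The RNA came from tumor-associated macrophages (TAMs) of NB9464 tumors, a transplantable mouse neuroblastoma line, of which 4000000 cells were implanted under the skin of mice with or without a myeloid deletion of *Syk*, a tyrosine kinase of immune receptor signaling. The mice were on the C57BL/6 background and 4 to 6 weeks old when injected, and the labels say that no treatment was given. The series title names an adoptive transfer of macrophages, whereas the labels describe TAMs of tumors grown in mice of each genotype, and the description here follows the labels. The labels themselves name TAMs at isolation but bone marrow-derived macrophages at RNA extraction. The isolation step is followed here, so the RNA is described as that of TAMs. SykMC-KO mice carried floxed *Syk* and a Cre recombinase driven by the promoter of the lysozyme M gene, *Lyz2*, so that deletion was directed to myeloid cells. SykMC-WT mice were their wild type controls, for which the sources used here do not say whether Cre or the floxed alleles were present. TAMs were pulled from the tumors with CD11b and F4/80 magnetic beads on day 40. There were 2 libraries for each genotype, M7 and M8 labelled SykMC-WT and M9 and M10 labelled SykMC-KO. No label says whether the libraries of a genotype came from separate mice, so p-values measure only the spread between these libraries, which may be technical.

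Prostaglandins and leukotrienes are lipid mediators made from arachidonic acid, which phospholipases A2 cut from membrane lipids. In the cyclooxygenase branch, COX-1 (*Ptgs1*) and COX-2 (*Ptgs2*) make prostaglandin H2, from which terminal synthases make prostaglandin E2 (PGE2) or prostaglandin D2 (PGD2). In the lipoxygenase branch, 5-lipoxygenase (*Alox5*) works with its activating protein FLAP (*Alox5ap*) to make leukotriene A4, which is then turned into leukotriene B4 or, by *Ltc4s*, into leukotriene C4. Macrophages can use both branches, and PGE2 acting through the receptors EP2 (*Ptger2*) and EP4 (*Ptger4*) is known for dampening macrophage and T cell responses in tumors.

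The libraries held 20755886 to 23518045 counts each. *Syk* itself was counted 765 and 569 times in M7 and M8 and 4033 and 2944 times in M9 and M10. It was thus higher in the libraries labelled SykMC-KO, which goes against the label. Its log2 fold change was 2.80 (adjusted p = 0.000674), against 0.03 (adjusted p = 0.951) when scaled to the macrophage markers described next. *Lyz2*, whose promoter drives Cre, was lower, at -4.13 (adjusted p = 0.00156), and at -4.85 without M10 and -3.73 without M9. Scaled to the macrophage markers *Lyz2* was at -6.74 (adjusted p = 1.01e-18). Every direction given here is that of the libraries as labelled. All 10 macrophage markers tested, which included *Adgre1*, *Cd68* and *Csf1r*, were also higher in those libraries, by log2 fold changes of 0.57 to 3.81 with a median of 2.82, and their summed level was 742 to 1083 CPM (counts per 1000000 after TMM scaling) in M7 and M8 against 5300 to 8215 CPM in M9 and M10. Of 8 fibroblast markers 5 were lower and none was higher, and their summed level was 12348 to 14232 CPM in M7 and M8 against 3995 to 4871 CPM in M9 and M10. In bulk RNA, fewer cells of a type and less RNA per cell cannot be told apart. Mitochondrial transcripts took 15.9% of the counts of M10 and 2.20% to 6.00% of those of the other libraries. For these reasons each member is given both on the usual scale, CPM with TMM scaling (edgeR's trimmed mean of M values, which centers most genes on no difference), and on a scale set by the geometric mean of the 10 macrophage markers. The macrophage scale moved the median log2 fold change of all genes from 0.02 to -2.74.

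On the TMM scale, 7 of the 10 genes were higher in the libraries labelled SykMC-KO and none was lower (edgeR quasi-likelihood test, adjusted p threshold of 0.05 over 16451 genes). The 7 were *Hpgds*, *Alox5*, *Alox5ap*, *Ltc4s*, *Alox15*, *Ptger2* and *Ptger4*. Among the 10 genes these are the PGD2 synthase, all 4 lipoxygenase branch genes and both PGE2 receptors. The 3 that did not pass were the cyclooxygenases and the PGE2 synthase of the list, *Ptgs1*, *Ptgs2* and *Ptges*. Among all genes tested 22.7% were called higher and 16.7% lower. The median log2 fold change of the members was 2.35, against 0.02 for all genes tested. DESeq2 also called 7 members higher and none lower. A fit without 1 library has 1 library in a group, so its spread comes from the other genotype alone. For such fits log2 fold changes are given, and calls are given below only where a call was lost. With only 2 libraries a genotype, an exact permutation test of any single gene cannot go below p = 0.333.

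**Figure D1:**
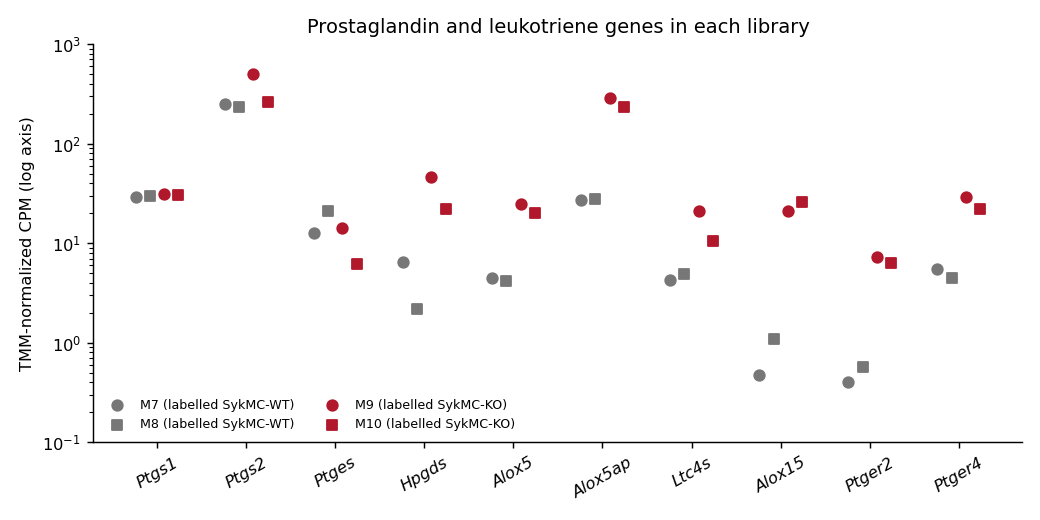
TMM-scaled CPM of each of the 10 genes on a logarithmic axis, with 1 point for each of the 4 libraries. Both libraries labelled SykMC-KO lie above both labelled SykMC-WT for 9 genes, closely for *Ptgs1* (31.5 and 30.6 against 28.8 and 29.9 CPM), while the points of *Ptges* overlap.

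In 9 of the 10 genes both libraries labelled SykMC-KO had more CPM than both labelled SykMC-WT, a pattern held by 38.0% of all genes tested. *Ptges* was the exception, with overlapping groups. M9 was above M10 in 9 of the 10 members, as it was in all 10 macrophage markers, whereas among all genes it was above M10 in 8193 of 16451. The part of this difference between M9 and M10 in the results was not tested.

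On the macrophage scale only *Alox15* was higher among the 10 genes, *Ptgs1*, *Ptgs2* and *Ptges* were lower, and the other 6 passed in neither direction. On that scale 0.784% of all genes were called higher and 86.6% lower. Thus the 7 genes called higher on the TMM scale included 6 whose difference, set against the macrophage markers, had an interval spanning 0. Compared with the range of the macrophage markers on the TMM scale, 1 member lay above the highest marker (*Alox15*), 2 lay below the lowest (*Ptgs1* and *Ptges*), and 4 of the 7 called members lay at or above the median marker.

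**Figure D2:**
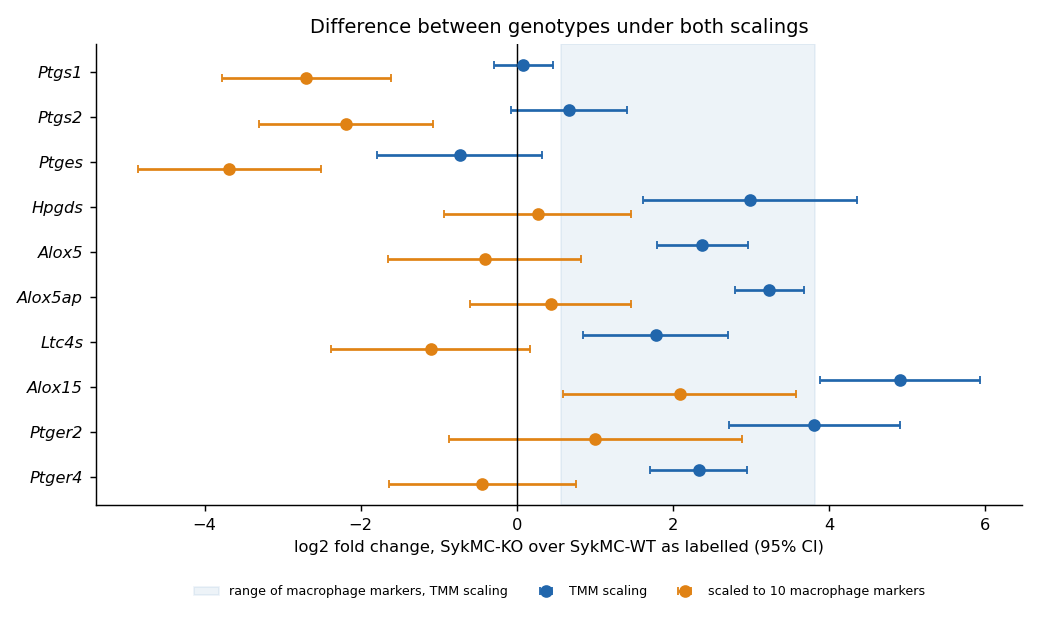
Log2 fold change of each gene, SykMC-KO over SykMC-WT as labelled, with its 95% confidence interval, under TMM scaling (blue) and scaled to 10 macrophage markers (orange). The shaded band is the range of the macrophage markers under TMM scaling, 0.57 to 3.81, and *Alox15* is the only member right of it, at 4.91.

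*Ptgs1* (ENSMUSG00000047250, chromosome 2: 36230426-36252272, plus strand, GRCm38) encodes COX-1, the cyclooxygenase that most tissues make without stimulation. It was counted 792 and 735 times in M7 and M8 and 649 and 563 times in M9 and M10. These came to 29.4 ± 0.731 CPM in the libraries labelled SykMC-WT and 31.1 ± 0.587 CPM in those labelled SykMC-KO (mean ± SD, n = 2). The groups were thus nearly level, and the log2 fold change of 0.08 did not pass the test (SE 0.158, 95% interval -0.30 to 0.46, adjusted p = 0.711). Its sign turned when counts were scaled by library size only (-0.45) and without M9 (-0.026). Set against the macrophage markers, it was lower, at -2.70 on the log2 scale (adjusted p = 3.25e-06), close to the median of all genes on that scale.

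*Ptgs2* (ENSMUSG00000032487, chromosome 1: 150100031-150108227, plus strand) encodes COX-2, the cyclooxygenase induced by inflammatory signals. It had the most counts of the 10 genes, 6866 and 5785 in M7 and M8 and 10394 and 4850 in M9 and M10. In CPM these were 250.05, 235, 504 and 264, so that M9 stood well above the other 3 libraries and M10 only a little above M7. The log2 fold change was 0.66 (SE 0.308, 95% interval -0.08 to 1.405, adjusted p = 0.132) and rested on 1 library: it was 1.07 without M10 and 0.03 without M9. With the macrophage scaling *Ptgs2* was lower, at -2.19 on the log2 scale (adjusted p = 0.000201).

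*Ptges* (ENSMUSG00000050737, chromosome 2: 30889471-30929863, minus strand) encodes the inducible microsomal PGE2 synthase that acts after COX-2. It was counted 346 and 520 times in M7 and M8 and 290 and 114 times in M9 and M10, or 12.6 and 21.1 CPM against 14.1 and 6.21 CPM. M9 lay between the libraries labelled SykMC-WT, and M10 lay below both. The log2 fold change was -0.73 (SE 0.439, 95% interval -1.79 to 0.33, adjusted p = 0.227). Here too the value depended on 1 library, since it was -1.53 without M9 and -0.25 without M10. On the macrophage scale *Ptges* was lower, at -3.68 on the log2 scale (adjusted p = 6.98e-09).

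*Hpgds* (ENSMUSG00000029919, chromosome 6: 65117293-65144908, minus strand) encodes the hematopoietic PGD2 synthase, known from mast cells, macrophages and some T cells. Its counts were 176 and 54 in M7 and M8 and 956 and 406 in M9 and M10, or 6.41, 2.20, 46.4 and 22.1 CPM. The libraries of each genotype differed more than 2-fold, yet the groups did not overlap. *Hpgds* was higher by 2.98 on the log2 scale (SE 0.569, adjusted p = 0.00934), and by 2.27 without M9 and 3.96 without M7. Set against the macrophage markers, the difference was 0.27 (adjusted p = 0.680). Of 8 mast cell markers 5 were tested, of which only *Cma1*, a chymase, passed the threshold and was lower, and their summed level overlapped between the groups (7.39 and 13.5 CPM in M7 and M8, 8.24 and 5.77 CPM in M9 and M10). The part of mast cells in the *Hpgds* result was not tested.

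*Alox5* (ENSMUSG00000025701, chromosome 6: 116410077-116461178, minus strand) encodes 5-lipoxygenase, the enzyme that commits arachidonic acid to leukotrienes. It was counted 122 and 103 times in M7 and M8 and 507 and 369 times in M9 and M10, or 4.44, 4.19, 24.6 and 20.1 CPM. The libraries of each genotype lay close together and far from the other genotype. The gene was higher by 2.37 on the log2 scale (SE 0.242, adjusted p = 0.00144). With the macrophage scaling the value was -0.41 (adjusted p = 0.532).

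*Alox5ap* (ENSMUSG00000060063, chromosome 5: 149264767-149288153, plus strand) encodes FLAP, the membrane protein that hands arachidonic acid to 5-lipoxygenase. It was counted 751 and 688 times in M7 and M8 and 5855 and 4312 times in M9 and M10, or 27.4, 28.0, 284 and 235 CPM. The mean rose 9.38-fold (log2 fold change 3.23, SE 0.183, adjusted p = 0.000486), with the smallest SE among the 7 genes called. On the macrophage scale the difference was 0.43 (adjusted p = 0.433).

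*Ltc4s* (ENSMUSG00000020377, chromosome 11: 50236461-50238616, minus strand) encodes leukotriene C4 synthase, which starts the cysteinyl leukotrienes. Its counts were 118 and 122 in M7 and M8 and 438 and 193 in M9 and M10, or 4.30, 4.96, 21.2 and 10.5 CPM. M9 was well above M10, and both were above M7 and M8. The gene was higher by 1.78 on the log2 scale (SE 0.385, adjusted p = 0.0140), and by 1.09 without M9. With scaling by library size only it no longer passed (1.27, adjusted p = 0.0516), and on the macrophage scale it was at -1.10 (adjusted p = 0.0993).

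*Alox15* (ENSMUSG00000018924, chromosome 11: 70344152-70352031, minus strand) encodes the mouse 12/15-lipoxygenase, which makes hydroxylated fatty acids and precursors of lipoxins and is known from resident peritoneal macrophages and eosinophils. It was counted 13 and 27 times in M7 and M8 and 435 and 477 times in M9 and M10. In CPM these were 0.473, 1.10, 21.1 and 25.96, and M10 was here the higher of the libraries labelled SykMC-KO, unlike in the other 9 genes. The log2 fold change of 4.91 was the largest of the 10 (SE 0.425, adjusted p = 0.000941), and it was 5.61 without M8. It also passed on the macrophage scale, where it was higher by 2.08 (adjusted p = 0.00772).

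On the TMM scale eosinophil markers moved the same way as *Alox15* but at low levels. Of 7 such genes *Siglecf* and *Ccr3* were the 2 that could be tested, and both were higher. Neither passed on the macrophage scale, where their median log2 fold change was 0.06 and *Alox15* was at 2.08. The summed level of the list was 0.619 and 1.14 CPM in M7 and M8 and 4.70 and 4.14 CPM in M9 and M10. *Epx*, the eosinophil peroxidase, was at 0 in every library. Of the other 5 genes that mark large peritoneal-type macrophages, *Selp* and *F5* were higher, *Gata6*, which directs that cell type, was at -0.51 on the log2 scale (adjusted p = 0.131), *Icam2* did not pass and *Timd4* was too low to test. On the macrophage scale 1 of the 4 tested was higher and 2 were lower, against 0.784% and 86.6% of all genes. The part of either cell type in the *Alox15* result was not tested.

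*Ptger2* (ENSMUSG00000037759, chromosome 14: 44988195-45003820, plus strand) encodes EP2, a PGE2 receptor that raises cyclic AMP. It had the fewest counts of the 10 genes in M7 and M8, 11 and 14, and it had 151 and 117 counts in M9 and M10, or 0.401, 0.569, 7.32 and 6.37 CPM. A count of 3 corresponded to 0.109 to 0.163 CPM in these libraries, so the low values were above that floor but rest on few reads. EP2 mRNA was higher by 3.81 on the log2 scale (SE 0.456, adjusted p = 0.00216). Set against the macrophage markers, it was at 1.002 (adjusted p = 0.314).

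*Ptger4* (ENSMUSG00000039942, chromosome 15: 5206661-5244187, minus strand) encodes EP4, the other PGE2 receptor coupled to cyclic AMP. It was counted 152 and 111 times in M7 and M8 and 593 and 401 times in M9 and M10, or 5.54, 4.51, 28.8 and 21.8 CPM. The groups were well apart, and the gene was higher by 2.33 on the log2 scale (SE 0.257, adjusted p = 0.00175). With the macrophage scaling it was at -0.44 (adjusted p = 0.489). Both EP receptors thus passed on the TMM scale and neither did on the macrophage scale.

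The promoters of *Ptgs1*, *Alox5*, *Ptger2* and *Ptger4* show what the DNA before the start of these genes looks like for a gene that was nearly level (*Ptgs1*), for the entry enzyme of the lipoxygenase branch and for both receptors. The 250 bases before the RefSeq start of each gene are given 5′ to 3′ on the gene's strand (GRCm38.p6), in lower case with GC boxes in capitals. They lie at chr2:36230176-36230425 (plus strand), chr6:116461179-116461428 (minus), chr14:44987861-44988110 (plus) and chr15:5244188-5244437 (minus), and none overlaps an annotated exon.
Ptgs1: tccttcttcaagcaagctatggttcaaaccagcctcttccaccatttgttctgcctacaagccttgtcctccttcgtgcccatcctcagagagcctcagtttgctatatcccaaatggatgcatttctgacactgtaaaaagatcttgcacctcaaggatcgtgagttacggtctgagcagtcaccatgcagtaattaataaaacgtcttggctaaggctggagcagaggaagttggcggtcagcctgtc
Alox5: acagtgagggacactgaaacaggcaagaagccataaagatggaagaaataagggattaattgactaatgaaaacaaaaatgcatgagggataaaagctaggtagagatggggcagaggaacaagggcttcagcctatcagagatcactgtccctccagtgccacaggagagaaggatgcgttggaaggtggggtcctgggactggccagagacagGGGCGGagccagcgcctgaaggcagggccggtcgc
Ptger2: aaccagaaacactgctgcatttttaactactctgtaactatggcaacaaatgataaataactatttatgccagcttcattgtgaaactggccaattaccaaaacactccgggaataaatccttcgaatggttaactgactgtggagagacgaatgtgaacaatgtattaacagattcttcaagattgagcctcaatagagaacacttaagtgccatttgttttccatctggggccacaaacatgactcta
Ptger4: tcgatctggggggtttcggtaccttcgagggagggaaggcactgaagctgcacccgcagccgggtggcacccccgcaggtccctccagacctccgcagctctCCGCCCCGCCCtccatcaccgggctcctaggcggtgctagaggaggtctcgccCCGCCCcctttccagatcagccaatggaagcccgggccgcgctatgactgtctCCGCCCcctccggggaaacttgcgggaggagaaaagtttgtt

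The GC box was searched as GGGCGG on both strands, and a TATA box as TATAAA on the gene's strand. *Alox5* held 1 GC box, 35 bases before the start, and *Ptger4* held 4, all on the other strand, of which a pair overlaps. Neither *Ptgs1* nor *Ptger2* held one. The window of *Ptger2* had 38% G and C, at percentile 8.47 of all mouse promoters, and that of *Ptger4* had 66.8%, at percentile 85.8. Of the 8 members with a RefSeq promoter, 4 held a GC box (*Alox5*, *Ptger4*, *Ptges* and *Ptgs2*), against 32.7% of 32851 mouse promoters, and none of the 8 held a TATA box, against 7.59%. The genes with a GC box were thus both called (*Alox5*, *Ptger4*) and not called (*Ptges*, *Ptgs2*). Such matches describe the letters in these windows only.

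Levels of different genes can be compared only per length, here as CPM per kilobase of exon. In the libraries labelled SykMC-WT *Ptgs2* stood first at 53.0, followed by *Alox5ap* at 19.5 and *Ptgs1* at 7.56. *Ltc4s* (4.56) and *Ptges* (4.29) came next and overlapped, and then *Alox5* at 1.05. *Ptger4* (0.756), *Hpgds* (0.670) and *Alox15* (0.320) followed, each overlapping the next, and *Ptger2* was last at 0.0934. Thus COX-2 mRNA stood first of the 10 genes there.

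In the libraries labelled SykMC-KO the order began with *Alox5ap* at 183 CPM per kilobase, ahead of *Ptgs2* at 83.9. *Ltc4s* (15.7) overlapped *Alox15* (9.59), and *Ptgs1* followed at 7.997. *Alox5* (5.44), *Hpgds* (5.33), *Ptger4* (3.80) and *Ptges* (2.58) came next, each overlapping its neighbor, and *Ptger2* was again last at 1.32. FLAP mRNA therefore stood above COX-2 mRNA in M9 and M10 and below it in M7 and M8.

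Expressed as shares of the summed counts per kilobase of the 10 genes, a measure free of the scaling between libraries, the cyclooxygenases and *Ptges* made up 71.0% and 70.3% in M7 and M8 and 32.9% and 25.2% in M9 and M10. The 4 lipoxygenase branch genes made up 27.0% and 28.4% in M7 and M8 and 63.6% and 71.8% in M9 and M10. The groups did not overlap in either share. The shares together make up nearly all of the sum, so when 1 falls the other rises, and they are not separate results. Shares are not free of differences in cell make-up. Fibroblast markers summed to 12348 to 14232 CPM in M7 and M8 against 3995 to 4871 CPM in M9 and M10, and the part of fibroblasts in these shares was not tested. Most of this difference lay in a pair of genes: *Ptgs2* took 59.4%, 56.1%, 29.7% and 21.7% in M7 to M10, and *Alox5ap* took 20.96%, 21.5%, 54.0% and 62.1%. *Hpgds* stayed at or under 1.95% and the receptors at or under 1.69% in every library.

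**Figure D3:**
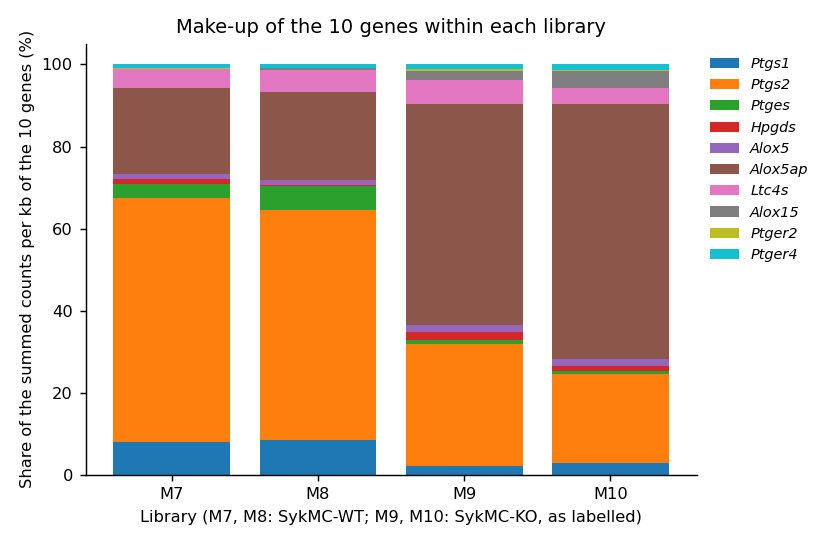
Share of each gene in the summed counts per kilobase of exon of the 10 genes, in percent, as a stacked bar for each library. *Ptgs2* takes the largest share in M7 and M8 (59.4% and 56.1%) and *Alox5ap* in M9 and M10 (54.0% and 62.1%).

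Ratios of 2 genes counted in the same library do not depend on scaling either, but like the shares they can differ with cell make-up. The count ratio of *Alox5ap* to *Ptgs2* was 0.109 and 0.119 in M7 and M8 and 0.563 and 0.889 in M9 and M10, a difference of 2.63 on the log2 scale. The count ratio of *Hpgds* to *Ptges*, a PGD2 synthase against a PGE2 synthase, was 0.509 and 0.104 in M7 and M8. In M9 and M10 it was 3.30 and 3.56. The difference was 3.90 on the log2 scale, and it was 5.04 without M7 and 2.75 without M8. In each pair the groups did not overlap, with *Alox5ap* higher relative to *Ptgs2*, and *Hpgds* relative to *Ptges*, in M9 and M10. Each of these pairs sets a gene called higher on the TMM scale against a gene not called, so their separation adds little to those calls. Other synthases of these products did not all differ in this way. *Ptgds*, another PGD2 synthase, was counted 132 and 98 times in M7 and M8 and 76 and 138 times in M9 and M10. *Ptges3*, another PGE2 synthase, was higher by 1.48 on the TMM scale.

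Within branches the ratios also differed. *Ptges* per *Ptgs2* count was 0.0504 and 0.0899 in M7 and M8 and 0.0279 and 0.0235 in M9 and M10 (difference -1.39 on the log2 scale). *Alox5ap* per *Alox5* count was 6.16 and 6.68 against 11.5 and 11.7 (difference 0.86), and *Ptger2* per *Ptger4* count was 0.0724 and 0.126 against 0.255 and 0.292 (difference 1.51). None of these 3 overlapped between the groups. The share of all gene pairs without overlap was not computed. Among single genes tested, 38.0% lay above and 37.2% below in both libraries labelled SykMC-KO on the TMM scale, so lack of overlap was common. The ratio of COX-2 to COX-1 counts, 8.67 and 7.87 in M7 and M8, did overlap, with 16.02 in M9 and 8.61 in M10. With 2 libraries a genotype no permutation test of these ratios could pass.

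**Figure D4:**
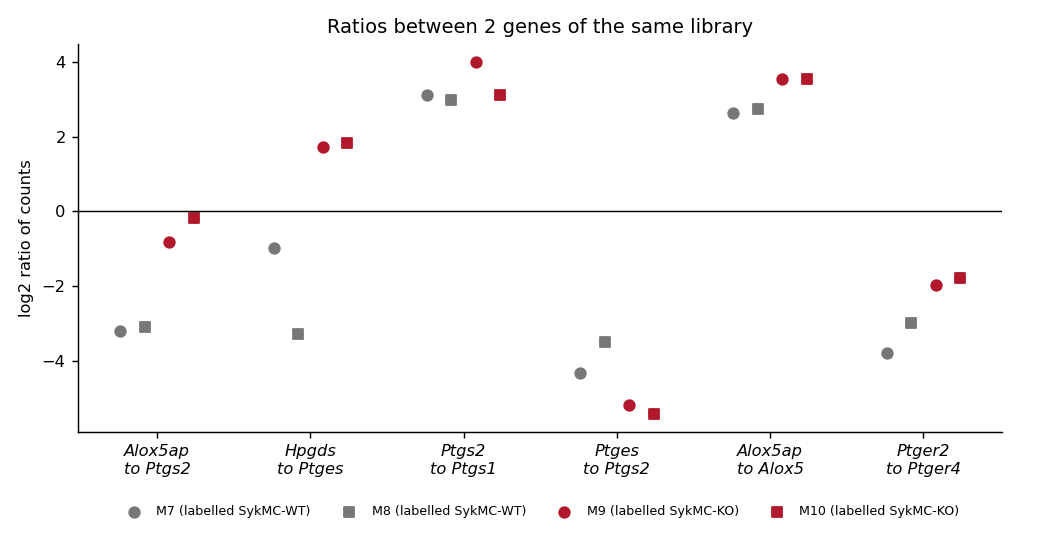
Log2 count ratio of 6 pairs of the genes, with 1 point for each library. The groups are apart in 5 pairs, with SykMC-KO as labelled above in 4 and below in *Ptges* to *Ptgs2*, and they overlap in *Ptgs2* to *Ptgs1*. The share of all gene pairs that are apart was not computed.

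Set against the geometric mean count of the 10 macrophage markers in the same library, *Ptgs2* was at 352% and 503% in M7 and M8 and at 105% and 82.1% in M9 and M10. *Alox5ap* was at 38.5% and 59.8% in M7 and M8 and at 59.4% and 73.0% in M9 and M10, so its groups overlapped. *Alox15* was at 0.666% and 2.35% against 4.41% and 8.08%. By this measure *Ptgs1*, *Ptgs2*, *Ptges*, *Ltc4s* and *Ptger4* were below in both libraries labelled SykMC-KO, *Alox15* and *Ptger2* were above, and *Hpgds*, *Alox5* and *Alox5ap* overlapped. Among all genes tested 92.0% were below and 2.92% above in the same way, so lying below was the usual outcome. M7 and M8 differed from each other in the same direction in most members, M8 being higher in 9 of 10.

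Neutrophils also make *Alox5* and *Alox5ap*, and their markers moved in the same direction. All 5 neutrophil markers that could be tested, of 8, were higher in the libraries labelled SykMC-KO (median log2 fold change 3.12), with a summed level of 24.6 and 39.4 CPM in M7 and M8 and of 407 and 204 CPM in M9 and M10. *Ly6g*, the defining surface marker, had at most 5 counts in any library. Markers of dendritic cells (4 of 6 higher) and T cells (4 of 6 higher) moved in this direction too, and 2 of 7 platelet genes did (*Pf4* and *Ppbp*), while *Itga2b* was lower. B cell markers were higher for 1 of 5, endothelial markers lower for 3 of 8, and tumor cell markers higher for 1 of 6, with *Th* and *Dbh* at 0. Among all genes tested 22.7% were called higher and 16.7% lower on the TMM scale. On the macrophage scale no neutrophil, dendritic cell, T cell or B cell marker was called higher. Median log2 fold changes there were 0.18 for neutrophil, 0.32 for dendritic cell and 0.17 for T cell markers. Of the platelet genes 1 was higher and 2 were lower there, against 0.784% and 86.6% of all genes. The part of these cells in the members' results was not tested.

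Beyond the members, 57 other genes of the pathway were listed by role, of which 41 had enough counts to test. Of these, 16 were higher and 4 were lower in the libraries labelled SykMC-KO, against the 22.7% and 16.7% of all genes given above, and their median log2 fold change was 0.35. The number lower depended on the libraries used, being 8 without M10, 7 without M9 and 2 without M7 or without M8. On the macrophage scale 3 of the 41 were higher (*Pla2g2d*, *Tbxas1* and *Ltb4r1*) and 27 were lower.

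**Figure D5:**
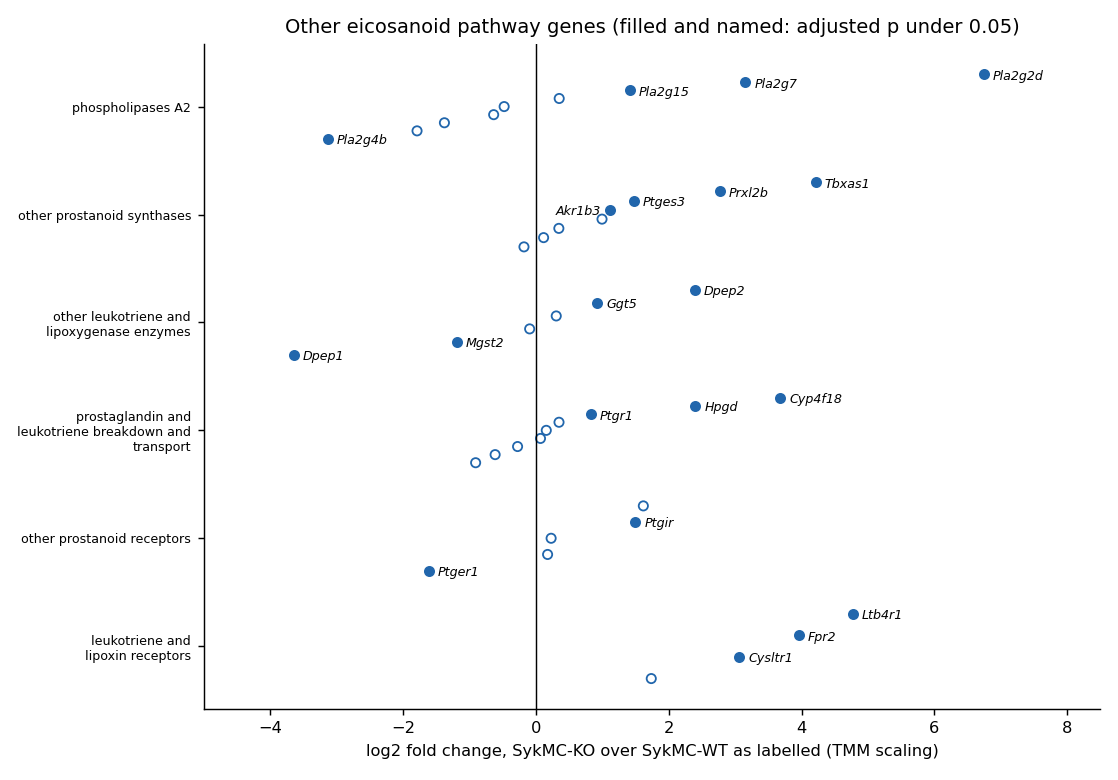
Log2 fold change of the 41 other pathway genes that could be tested, SykMC-KO over SykMC-WT as labelled under TMM scaling, grouped by role, with 1 point a gene. Filled and named points passed the threshold, 16 on the right and 4 on the left, and open points did not. The position of *Pla2g2d* depends on the fit, since it had at most 2 counts in M7 and M8.

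Among the phospholipases A2, which release arachidonic acid or act on related lipids, 3 of 9 tested were higher and 1 was lower. *Pla2g7*, the secreted platelet-activating factor acetylhydrolase, was higher by 3.15 on the log2 scale (adjusted p = 0.000738), and *Pla2g15*, a lysosomal phospholipase, by 1.41 (adjusted p = 0.00270). *Pla2g2d*, a secreted form, had 2 and 1 counts in M7 and M8 and 144 and 120 in M9 and M10, at least 58.5-fold higher against a floor of 3 counts a library. *Pla2g4a*, the cytosolic enzyme that supplies most arachidonic acid for both branches, was at -0.64 and just missed the threshold (adjusted p = 0.0521). It was called lower by DESeq2 (adjusted p = 0.0360), and its log2 fold change was -1.01 without M9 and -0.38 without M10. *Pla2g4b* was called lower (-3.13), but 3878 of its 5831 exon bases are shared on the same strand with *Gm28042*, so its counts are uncertain.

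Of 8 other prostanoid synthases tested 4 were higher and none was lower. *Tbxas1*, the thromboxane synthase, was counted 106 and 61 times in M7 and M8 and 1385 and 941 times in M9 and M10 and was higher by 4.22 (adjusted p = 0.000674), and by 1.48 on the macrophage scale (adjusted p = 0.0148). *Ptges3*, a cytosolic PGE2 synthase that also serves as a chaperone partner, was higher by 1.48, in contrast with *Ptges*. *Prxl2b* (2.77) and *Akr1b3* (1.12), both linked to prostaglandin F2α, were higher too, *Akr1b3* not without M8 (adjusted p = 0.0644). *Ptges2*, the remaining PGE2 synthase, was at -0.18 (adjusted p = 0.482).

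Among 6 other leukotriene and lipoxygenase enzymes tested, 2 were higher and 2 were lower. *Lta4h*, which makes leukotriene B4, was at 0.31 and did not pass (adjusted p = 0.182), unlike *Ltc4s* on the other arm. Of the enzymes that trim cysteinyl leukotrienes, *Dpep2* (2.39) and *Ggt5* (0.92) were higher, the latter not without M7 or without M8 (adjusted p = 0.153 and 0.321), and *Dpep1* was lower (-3.65). *Mgst2*, which can also make leukotriene C4, was lower (-1.19), and not without M7 or without M8 (adjusted p = 0.0572 and 0.0531). The best counted gene of this list, *Mgst3*, was at -0.09 (adjusted p = 0.773). *Dpep2* shares 1585 of its 4247 exon bases on the same strand with another entry of that name. That entry had 0 counts in M7 and in M8 and 4 and 17 in M9 and M10.

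In breakdown and transport 3 of 9 genes were higher and none was lower. *Hpgd*, which inactivates prostaglandins, was higher by 2.40 (adjusted p = 0.0114) and by 1.54 without M9, and *Cyp4f18*, which inactivates leukotriene B4 in mice, by 3.68 (adjusted p = 0.000674). *Ptgr1*, which reduces both kinds of mediator, was higher by 0.83, not without M8 (adjusted p = 0.168). The best counted gene, the transporter *Abcc1*, was at -0.28 (adjusted p = 0.248).

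Of the leukotriene and lipoxin receptors 3 of 4 tested were higher. *Ltb4r1*, the high-affinity leukotriene B4 receptor, was counted 29 and 36 times in M7 and M8 and 844 and 516 times in M9 and M10 and was higher by 4.78 (adjusted p = 0.000674), and by 1.92 on the macrophage scale (adjusted p = 0.00677). *Cysltr1*, a receptor for cysteinyl leukotrienes, was counted 199 and 119 times against 1289 and 704 times (3.06), and *Fpr2*, the lipoxin and formyl peptide receptor, 19 and 28 times against 273 and 280 times (3.96). *Cysltr2*, with 9 and 15 against 20 and 40 counts, did not pass (1.74), and was at 2.13 without M9 and 1.06 without M10. *Ltb4r2* had at most 6 counts and *Oxgr1* none.

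Of 5 other prostanoid receptors tested 1 was higher and 1 was lower. *Ptgir*, the prostacyclin receptor, was higher by 1.495 (37 and 45 against 104 and 72 counts, adjusted p = 0.0380), not without M7 or without M8 (adjusted p = 0.296 and 0.204). *Ptger1*, the EP1 receptor, was called lower (-1.62), but its counts are uncertain, and it was not called without M7 or without M8 (adjusted p = 0.0516 and 0.187). *Ptger3* (16 and 5 against 16 and 2 counts), *Ptgfr* (11 and 19 against 13 and 55) and *Tbxa2r* (47 and 30 against 24 and 42) overlapped between the groups. The log2 fold change of *Ptgfr* was 2.26 without M9 and 0.12 without M10. The PGD2 receptor *Ptgdr2* had 6 and 3 against 3 and 20 counts, and the other PGD2 receptor, *Ptgdr*, had none in any library.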

How the data were processed

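Poly(A)-enriched RNA of 4 TAM preparations was sequenced as paired reads of 150 bases, per the labels. The deposited table holds 1 whole-number count per Ensembl gene and library, made by the authors and not normalized. The submitters' processing notes name STAR 2.6.1d, Salmon 1.4.0, SAMtools 1.9, Picard 2.26, MultiQC 1.11 and the mouse build mm10. Salmon estimates counts, and how these became whole numbers is not given in the sources used here. The labels name bone marrow-derived macrophages at RNA extraction but TAMs at isolation, and the study's methods describe single reads in triplicate, which differs from the labels. Whether the counting used strand is not given.

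Genes were matched to GENCODE M21 (GRCm38). The 2 genotypes were compared with edgeR 4.0.16 in R 4.3.3 (TMM scaling, filterByExpr, quasi-likelihood test, 16451 genes, Benjamini-Hochberg adjustment, threshold 0.05, two-sided). SE was taken from the fold change and its F statistic, and fold changes are slightly shrunk for low counts. DESeq2 1.42.0 was an alternative, and others were different scalings and filters and leaving out each library. The main fit was also run on simulated counts in which few genes differed, in both directions. Such a simulation cannot judge the choice of scaling for these data. Libraries of a genotype differed by more than sampling noise (chi-square per degree of freedom 50.6 for SykMC-WT and 168 for SykMC-KO), so none was merged. Depth was 20755886 to 23518045 counts a library, and floors of 3 counts cover counting error only, whereas the intervals of fold changes come from the fit and include the spread between libraries. The 10 members, the pathway lists and the marker lists were chosen with earlier results of these data known. All members are named, as are all pathway genes past the threshold, the receptors and the best counted gene of each list, while *Epx*, *Cma1* and other markers were named after their values were seen. Promoter sequences are from RefSeq (GRCm38.p6), which matched 8 of the 10 members, and windows that overlap exons are not printed. The window of *Ptges*, which overlaps no exon, is not printed either. The values of 1 tumor cell marker and the reason that the counts of *Ptger1* are uncertain are not reported here.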

Additional observations from a re-analysis of the deposited data

How the results depend on the processing

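Of the 7 members called higher, all kept their direction and their call with DESeq2, with DESeq2 size factors, under both filters on low counts, without mitochondrial and rRNA-like genes and without any 1 library, and all but *Ltc4s* did with scaling by library size only. Members called higher numbered 7 to 8 and members called lower 0 to 1 over the fits that left out 1 library. Other pathway genes called higher numbered 12 to 20 and those called lower 2 to 8 over the same fits. Testing all genes with at least 1 count called *Ptges* lower, the 1 member lower there, and *Ptgs2* higher. Scaling by library size only, which moved the median of all genes by -0.53, called 10 other pathway genes lower and put *Ptgs1* at -0.45. *Ptgs1* was also below 0 without M9 (-0.026) and without mitochondrial and rRNA-like genes (-0.0063), and its range was -0.026 to 0.114 over the fits without 1 library. The cause was not tested.

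Scaling to cell type genes changed most results, by construction, since those genes were higher in the libraries labelled SykMC-KO. Scaled to macrophage markers, members called higher numbered 1 and lower 3, and other pathway genes 3 and 27. Scaled to 6 pan-leukocyte genes, which put the median of all genes at -3.39, members called higher numbered 1 and lower 6, and other pathway genes 2 and 31. Log2 fold changes that turned sign on the macrophage scale and then the leukocyte scale were -2.70 and -3.34 for *Ptgs1*, -2.19 and -2.82 for *Ptgs2*, -0.41 and -1.06 for *Alox5*, -1.10 and -1.73 for *Ltc4s* and -0.44 and -1.10 for *Ptger4*. Of the 41 other pathway genes tested, 21 turned from above to below 0 on the macrophage scale and 23 on the leukocyte scale, of which 12 on each were not called on the TMM scale. Among those called they were -1.39 and -2.03 for *Pla2g15*, -1.27 and -1.92 for *Ptges3*, -1.63 and -2.29 for *Akr1b3*, -0.042 and -0.69 for *Prxl2b*, -1.81 and -2.48 for *Ggt5*, -0.46 and -1.09 for *Dpep2*, -0.40 and -1.07 for *Hpgd*, -1.92 and -2.58 for *Ptgr1* and -1.34 and -1.97 for *Ptgir*. On the leukocyte scale alone *Hpgds* (-0.43), *Alox5ap* (-0.21), *Pla2g7* (-0.27), *Cysltr1* (-0.38) and *Syk* (-0.62) turned sign. Leaving out each library for the within-library ratios was added after seeing the data. No paired analysis was possible because the labels' numbers, 7 to 10, are not shared between the genotypes.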
